A study of Rattus norvegicus with 20 samples.

Results

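The rat genes Ifitm3, Mx1, Mx2, Irf1 and Stat3 act in the response of cells to interferons and related cytokines. They are 5 of the 4736 genes that the array's annotation names singly. Every probe set annotated to one of these symbols was taken, whatever its level, which gave 7 of the 8740 probe sets tested. Irf1 and Stat3 have 2 probe sets each, called A (the brighter over all cultures) and B, and the other 3 genes have 1 each. The 5 genes were chosen by name with earlier results of these data known, so the counts over them below are descriptions.

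Transcript levels were measured on 20 Affymetrix arrays of rat neural progenitor cultures and of cells derived from them. RA/Fsk is the group of low-density progenitors given RA/Fsk (by common usage retinoic acid and forskolin) in order to obtain neurons, with 4 arrays of 4 cultures. FBS is the group of low-density progenitors given FBS (fetal bovine serum) in order to obtain astrocytes, with 6 arrays of 4 cultures. HD is the group of high-density progenitors, with 6 arrays of 3 cultures, and LD is the group of untreated low-density CCg progenitors, with 4 arrays of 3 cultures. RA/Fsk, FBS and LD cells thus share the low-density CCg origin, which the labels do not state for HD cells, and the term CCg is not expanded. The labels give no dose, duration, age, strain or culture protocol. They do not say whether numbered samples came from separate cultures, so the p-values describe how far these samples spread, which may be technical. "Culture" is used here for the average of all arrays in a group with the same number.

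Interferons bind receptors coupled to Janus kinases, which phosphorylate STAT proteins, and these enter the nucleus and switch on transcription together with interferon regulatory factors. Interferon-stimulated genes often carry interferon-stimulated response elements or gamma-activated sites near their start, and many of their products block viruses. In neural progenitors, Stat3 is also activated by cytokines that signal through the receptor subunit gp130 (Il6st), and this branch is known to promote the formation of astrocytes.

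The start regions of the 2 genes with the clearest differences are shown first, since Ifitm3 and Irf1 carry letters that fit these elements. The windows come from RefSeq for assembly GRCr8 and span 250 bases before to 50 bases after the annotated start. The letters searched on both strands were GAAA, any 2 bases and GAAA again, a core of the interferon-stimulated response element, and TTCNNNGAA, the gamma-activated site, whose pattern is its own reverse complement. Capitals mark the matches. The Ifitm3 window lies on the minus strand at chr1:205541709-205542008 and holds GAAAAGGAAA at bases 207 to 216 and TTCTGAGAA at bases 218 to 226, counted from its first base. The Irf1 window lies on the plus strand at chr10:38417685-38417984 and holds TTCCCCGAA at bases 109 to 117.
Ifitm3: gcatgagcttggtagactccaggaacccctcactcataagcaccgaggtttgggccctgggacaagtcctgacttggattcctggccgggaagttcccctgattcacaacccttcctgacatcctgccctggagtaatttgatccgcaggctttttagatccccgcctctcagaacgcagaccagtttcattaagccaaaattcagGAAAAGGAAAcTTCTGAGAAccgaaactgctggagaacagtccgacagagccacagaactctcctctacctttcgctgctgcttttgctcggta
Irf1: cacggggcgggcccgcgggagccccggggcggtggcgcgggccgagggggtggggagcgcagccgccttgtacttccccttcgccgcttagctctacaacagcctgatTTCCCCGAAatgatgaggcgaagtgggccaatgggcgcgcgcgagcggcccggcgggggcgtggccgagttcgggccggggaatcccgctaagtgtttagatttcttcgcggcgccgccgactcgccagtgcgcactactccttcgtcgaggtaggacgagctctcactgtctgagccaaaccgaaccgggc
Of 33469 rat start windows of this kind, 3.92% hold the first pattern and 8.87% hold the second. The windows of Stat3 (chr10:86363310-86363609, minus strand) and Mx1 (chr11:50294557-50294856, minus strand) hold neither, which says only that these letters are not in these windows. No window for Mx2 was available in the sources used, so Mx2 was not searched. The matches are descriptions of sequence, and binding was not measured.

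Intensities are the deposited linear values. Array trimmed means, which leave out the lowest and highest 2% of values, ran from 200.28 to 200.46, and array medians from 41 to 57.5. Differences are log2(intensity + 4.99) of the group named first minus that of the second-named group, given with their standard error (SE), and understate changes of dim probe sets. They come from limma across all 4 groups, and to pass, a difference needed an adjusted p under 0.05 (Benjamini-Hochberg, over the 8740 tested). The level of a culture or group is the geometric mean on the same scale, in intensity units. Arrays cannot tell fewer cells of a type from less RNA per cell.

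**Figure D1:**
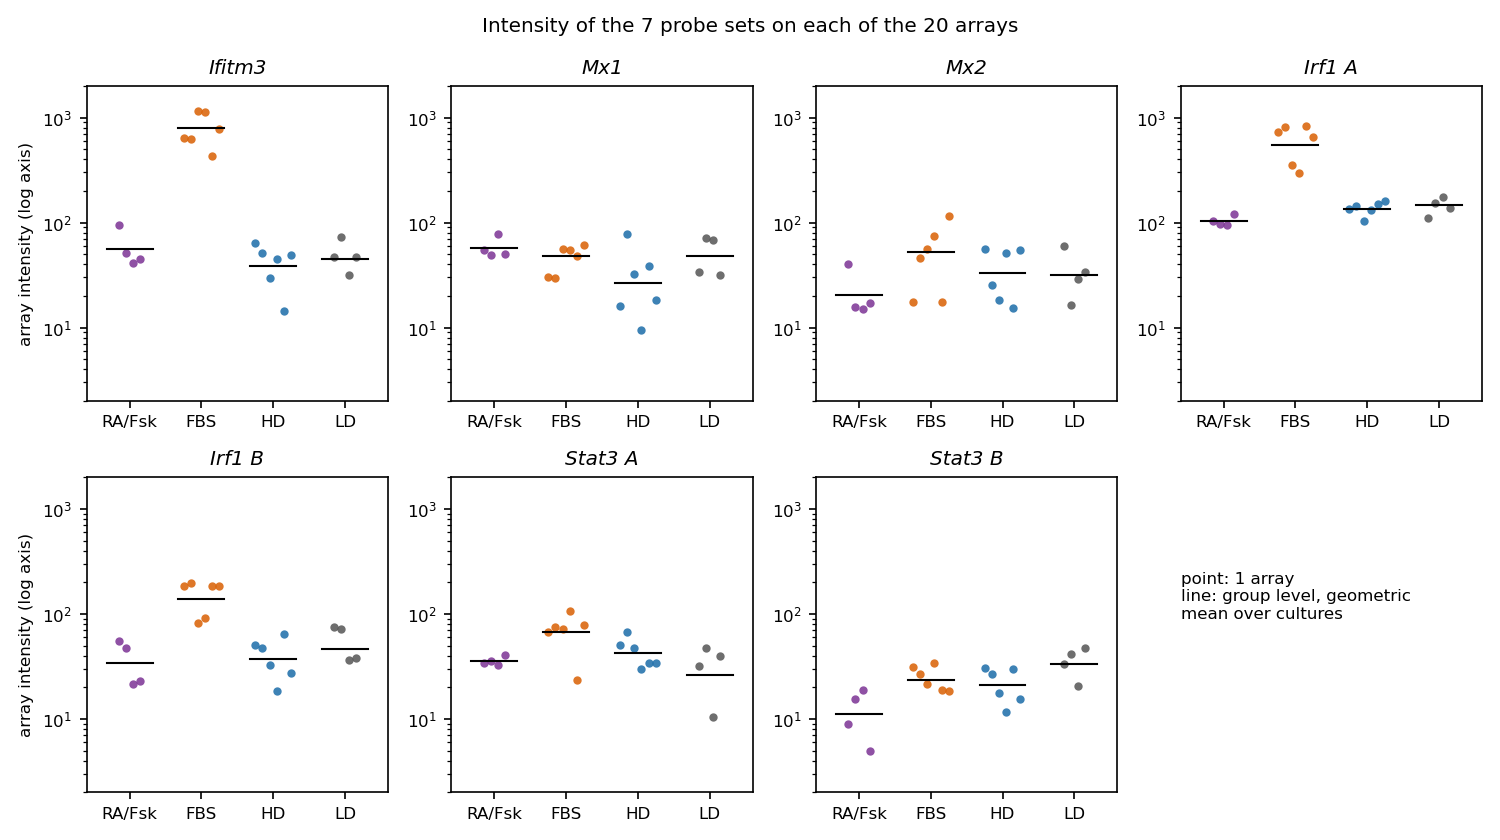
Each panel shows 1 probe set, with array intensity on a log axis for the RA/Fsk, FBS, HD and LD groups (points are arrays, lines are group levels). All 6 FBS arrays of Ifitm3 lie between 434.7 and 1167.9, above every other array, and the same separation is seen for both Irf1 probe sets.

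Ifitm3, a membrane protein of endosomes that blocks the entry of many enveloped viruses, was far higher in FBS cultures than in any other group. In the order of their numbers, the 4 RA/Fsk cultures had levels of 95.7, 51.6, 41.6 and 45.2, and the 4 FBS cultures 630.5, 1167.9, 700.1 and 786.6. The HD cultures had 57.5, 36.5 and 27.4, and the LD cultures 58.9, 31.5 and 47.2. Every FBS culture exceeded every culture of the other groups, while RA/Fsk, HD and LD cultures overlapped with each other. Ifitm3 rose by 4.02 ± 0.31 (SE) log2 in FBS against LD, a 16.2-fold change (limma adjusted p = 7.25e-08), and only 46 of the 8740 probe sets had a larger difference. It rose by 4.20 ± 0.31 in FBS against HD (adjusted p = 5.45e-08). It fell by 3.73 on the log2 scale in RA/Fsk against FBS (SE 0.28, adjusted p = 8.2e-08).

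The other 3 comparisons of Ifitm3 did not pass. The difference was 0.29 ± 0.31 in RA/Fsk against LD, with a 95% confidence interval of -0.36 to 0.94, and 0.46 ± 0.31 in RA/Fsk against HD, with an interval of -0.19 to 1.12. In HD against LD it was -0.18 ± 0.33, with an interval of -0.87 to 0.52. Ranked by group level, FBS (798.1) stood apart, and RA/Fsk (55.4), LD (44.5) and HD (38.8) followed with no neighbouring pair beyond its spread. On the arrays themselves, Ifitm3 lay at the 86.9th to 94.4th percentile of probe sets in FBS. In the other groups it lay between the 28.5th and the 61.6th. The probe set is of a type whose probes can match more than 1 transcript, and no tested probe set carries the symbol Ifitm1 or Ifitm2, so closely related family members cannot be told apart from Ifitm3.

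Mx1 and Mx2 encode dynamin-like GTPases that trap incoming viruses and are classic targets of type I interferon, and neither differed between FBS and LD beyond the spread. Mx1 levels were 54.5, 48.7, 78.1 and 50.5 in the RA/Fsk cultures, and 30.0, 56.0, 51.3 and 61.4 in the FBS cultures. They were 36.9, 18.2 and 26.7 in the HD cultures and 49.3, 68.3 and 31.6 in the LD cultures. FBS and LD cultures overlapped, with a difference of 0.01 ± 0.32 and a 95% confidence interval of -0.66 to 0.69 (adjusted p = 0.981). The widest Mx1 difference was 0.98 ± 0.32 in RA/Fsk against HD, where all 4 RA/Fsk cultures exceeded all 3 HD cultures, and it did not pass (adjusted p = 0.0629). The 2 arrays of HD culture 1 read 16.1 and 78.1 for Mx1, a wider gap on the log2 scale than between any pair of cultures.

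Mx2 levels were 40.4, 15.7, 14.9 and 17.1 in the RA/Fsk cultures and 29.1, 56.3, 37.3 and 115.1 in the FBS cultures. They were 38.0, 31.1 and 29.8 in the HD cultures, and 32.3, 29.1 and 33.7 in the LD cultures. RA/Fsk culture 1 lay within the FBS range and the other 3 lay below it. Mx2 fell by 1.17 on the log2 scale in RA/Fsk against FBS (SE 0.37, adjusted p = 0.0334). That call ended in 9 of 21 alternatives, among them the fits without FBS culture 2 (adjusted p = 0.0803), without FBS culture 4 (0.127) and without RA/Fsk culture 2, 3 or 4 (0.0848, 0.0786 and 0.0787). FBS against LD gave 0.64 ± 0.39 and did not pass (adjusted p = 0.277). Arrays of the same culture disagreed widely, reading 60.2 and 16.3 in LD culture 1, and 74.6 and 17.5 in FBS culture 3.

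Irf1 encodes a transcription factor that is induced by interferon gamma and binds interferon-stimulated promoters, and both of its probe sets were higher in FBS. They were designed on the same source sequence and are not independent measurements of the gene. On probe set A the RA/Fsk cultures had levels of 102.8, 97.5, 94.0 and 121, and the FBS cultures had 767.6, 350.7, 496.9 and 648.1. The HD cultures had 138.3, 116.9 and 155.2, and the LD cultures had 131.2, 177 and 138. The lowest FBS culture lay above the highest culture of any other group. Probe set A rose by 1.85 ± 0.22 log2 in FBS against LD, a 3.59-fold change (adjusted p = 9.26e-06), and by 1.96 ± 0.22 in FBS against HD (adjusted p = 6.17e-06). It fell by 2.34 on the log2 scale in RA/Fsk against FBS (SE 0.21, adjusted p = 5.61e-07).

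Probe set B of Irf1 was dimmer and showed the same order of FBS against the rest. Its levels were 54.8, 47.6, 21.6 and 23.1 in the RA/Fsk cultures and 191.2, 82.2, 130.5 and 186.7 in the FBS cultures. They were 49.0, 24.6 and 42.7 in the HD cultures, and 73.8, 36.4 and 38.0 in the LD cultures. Culture 2 of FBS was the lowest of its group on both probe sets. Probe set B rose by 1.48 ± 0.38 in FBS against LD (adjusted p = 0.00721) and by 1.78 ± 0.38 in FBS against HD (adjusted p = 0.00213). It fell by 1.89 on the log2 scale in RA/Fsk against FBS (SE 0.35, adjusted p = 0.000925).

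Without FBS, Irf1 levels lay close together. Probe set A had group levels of 103.4 in RA/Fsk, 135.9 in HD and 147.5 in LD. All 4 RA/Fsk cultures lay below all 3 LD cultures, by -0.49 ± 0.22 log2, but the difference did not pass (adjusted p = 0.216). Neither did RA/Fsk against HD (-0.38 ± 0.22, adjusted p = 0.358) or HD against LD (-0.11 ± 0.24, adjusted p = 0.874). On probe set B these 3 differences ran from -0.41 to -0.11, none of them past the threshold.

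**Figure D2:**
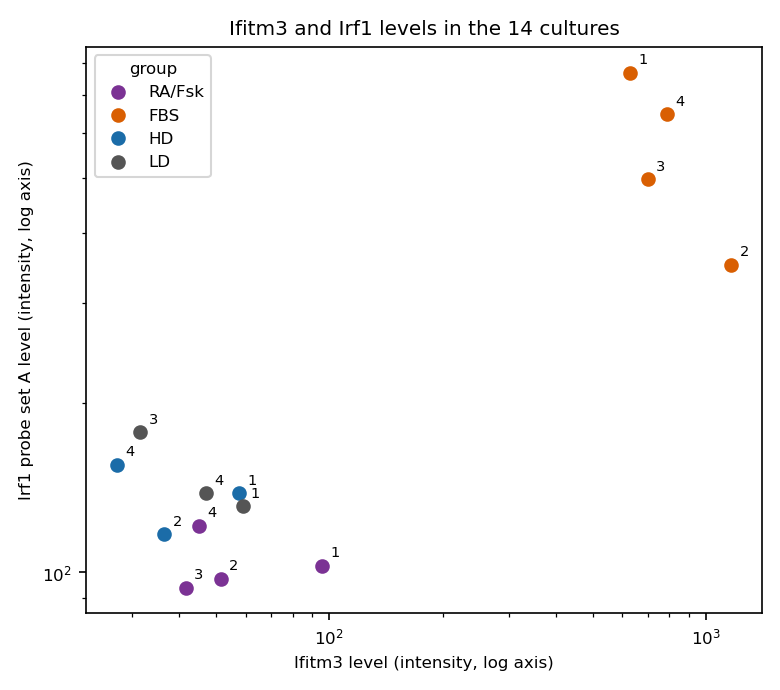
Each point is 1 culture, numbered as in the labels, with its Ifitm3 level on the x axis and its Irf1 probe set A level on the y axis (both log axes, intensity units). The 4 FBS cultures lie apart in the upper right, where culture 2 has the highest Ifitm3 (1167.9) and the lowest Irf1 (350.7).

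Within the FBS group, Ifitm3 and Irf1 did not vary in step. Culture 2 had the highest Ifitm3 level and the lowest level on both Irf1 probe sets, and culture 1 had the lowest Ifitm3 level and the highest Irf1 levels. The 2 arrays of FBS culture 3 split in the same way. Array 3 read 1125.8 for Ifitm3 and 295.9 for Irf1 A, whereas array 3r read 434.7 for Ifitm3 and 832.2 for Irf1 A. The labels do not say what 3r means. These gaps are wider than those between any pair of FBS cultures, so the order of the FBS cultures cannot be told from variation between arrays. Both arrays exceeded every array outside FBS for Ifitm3 and for Irf1 A, and the calls of Ifitm3 and Irf1 A in FBS passed with array 3 alone and with array 3r alone.

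Stat3 is the transcription factor downstream of gp130 cytokines, and its 2 probe sets did not give the same picture. On probe set A the RA/Fsk cultures had levels of 34.4, 35.8, 32.8 and 41.1, and the FBS cultures had 71.0, 72.7, 51.5 and 78.2. The HD cultures had 59.0, 37.8 and 34.5, and the LD cultures had 39.4, 10.5 and 40.1. FBS cultures lay above all LD cultures, and LD culture 3 stood far below the other two. Probe set A rose by 1.21 ± 0.35 log2 in FBS against LD (adjusted p = 0.015). Without LD culture 3 the difference was 0.70 and did not pass (adjusted p = 0.0995). With array 3r alone for FBS culture 3, which read 23.6 where array 3 read 106.8, it was 0.96 (adjusted p = 0.12).

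Probe set B of Stat3 was dim in every group. The RA/Fsk cultures had levels of 8.9, 15.6, 19.1 and 5, and the FBS cultures had 29.1, 21.4, 25.5 and 18.6. The HD cultures had 28.7, 14.6 and 21.8, and the LD cultures had 37.1, 20.7 and 47.7. It gave -0.44 ± 0.35 in FBS against LD, opposite in sign to probe set A and not past the threshold (adjusted p = 0.42). The correlation between the 2 probe sets over the 14 cultures was r = 0.149, as a description. Probe set B fell by 1.25 on the log2 scale in RA/Fsk against LD (SE 0.35, adjusted p = 0.0386), where all 4 RA/Fsk cultures lay below the 3 LD cultures. Numbers were taken to pair the RA/Fsk and LD cultures from weak correlations (r = 0.108 to 0.327), since the labels do not state a pairing. With the number as a block the Stat3 B difference was -1.23 and no longer passed (adjusted p = 0.0706). Differences of pathway and marker genes in RA/Fsk against LD are given from the fit without the block. Stat3 B also missed the threshold without LD culture 1 (adjusted p = 0.107), LD culture 4 (0.153), RA/Fsk culture 1 (0.0684) or RA/Fsk culture 4 (0.102).

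**Figure D3:**
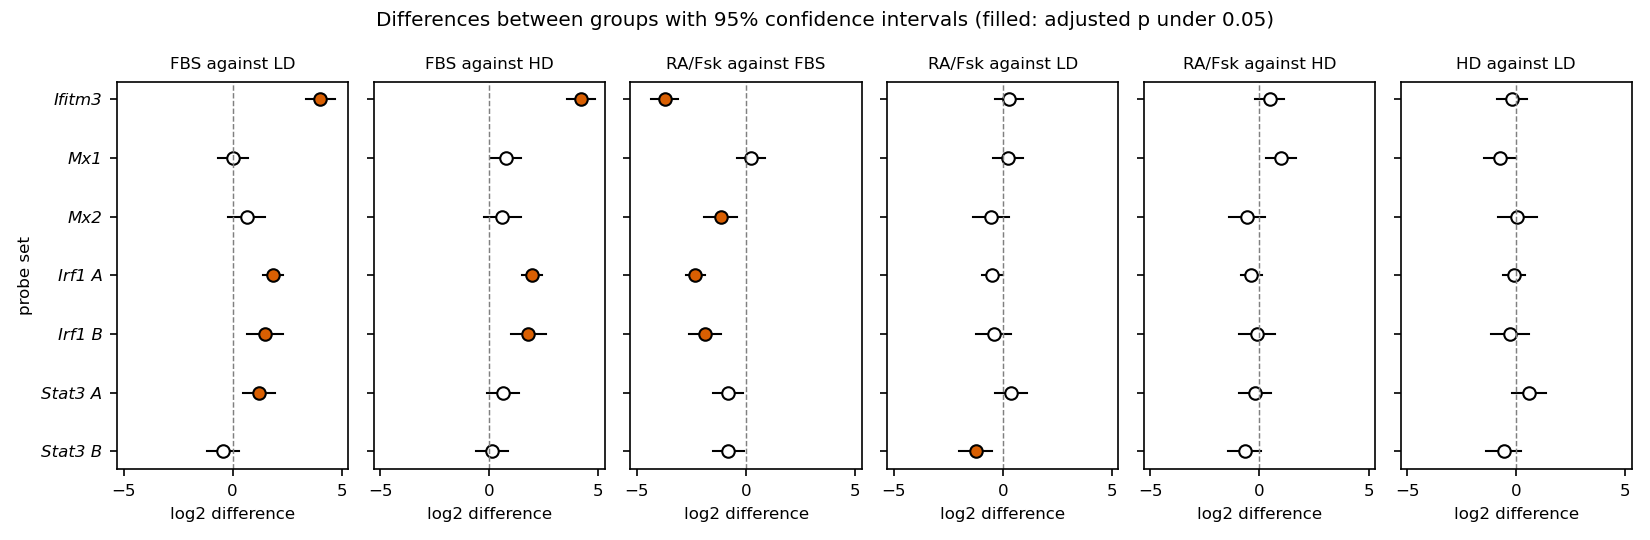
Each panel is 1 comparison, with the log2 difference and its 95% confidence interval for the 7 probe sets, filled where the adjusted p was under 0.05. Ifitm3 and both Irf1 probe sets are high in the 2 FBS panels and low in RA/Fsk against FBS, and Mx1 has no filled point.

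Counted over the 7 probe sets, 4 rose in FBS against LD (Ifitm3, Irf1 A, Irf1 B and Stat3 A), where 13.2% of all tested probe sets rose. In FBS against HD, 3 rose (Ifitm3, Irf1 A and Irf1 B), where 11.3% of all rose. Of the 7, 4 fell in RA/Fsk against FBS (Ifitm3, Irf1 A, Irf1 B and Mx2), where 10.1% of all fell. The comparisons of FBS with LD, of FBS with HD and of RA/Fsk with FBS share the FBS cultures and are not independent of each other. Only Stat3 B, 1 of 7, fell in RA/Fsk against LD, where 3.54% of all fell. In HD against LD, 0 of 7 passed in limma, where 0.858% of all did, and 1 of 7 (Mx1) had an unadjusted p under 0.05, where 13.8% of all did. Likewise 0 of 7 passed in RA/Fsk against HD, where 10.2% of all did, and 1 of 7 (Mx1) had an unadjusted p under 0.05, where 22.2% of all did.

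Genes of the pathway, the 5 above included, were read from 7 lists with 161 genes in all. Of these, 80 were measured, each by its probe set with the highest mean. The counts thus hold Ifitm3, Irf1 and Stat3 again in FBS against LD, and Ifitm3 and Irf1 in FBS against HD. In RA/Fsk against FBS they hold Ifitm3, Irf1 and Mx2. The lists were also written with earlier results known, so the counts are descriptions. In FBS against LD, 23 rose and 5 fell, where 13.6% and 12.4% of the 4736 measured genes rose and fell. The median difference of the 80 genes was 0.24 log2. Over all probe sets it was -0.09, which is not a like measure, since it is not limited to the brightest probe set of a gene. In FBS against HD, 20 rose and 1 fell, where 12.1% and 10.3% of all genes did. Of the 80 genes, 3 rose and 16 fell in RA/Fsk against FBS (8.95% and 10.4% of all genes). In RA/Fsk against LD, 8 rose and 2 fell (5.62% and 3.32% of all genes), and in RA/Fsk against HD 8 rose and 2 fell (5.72% and 4.94%). In HD against LD, 0 rose and 1 fell, the acute-phase gene Crp (0.317% and 0.148% of all genes). Of the 80, 7 had an unadjusted limma p under 0.05 upward, where 5.41% of all genes did, and 9 had it downward. In either direction, 13.8% of all tested probe sets had it. The lists overlap in part, since Il6st and Stat3 stand among the STAT3 targets as well.

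**Figure D4:**
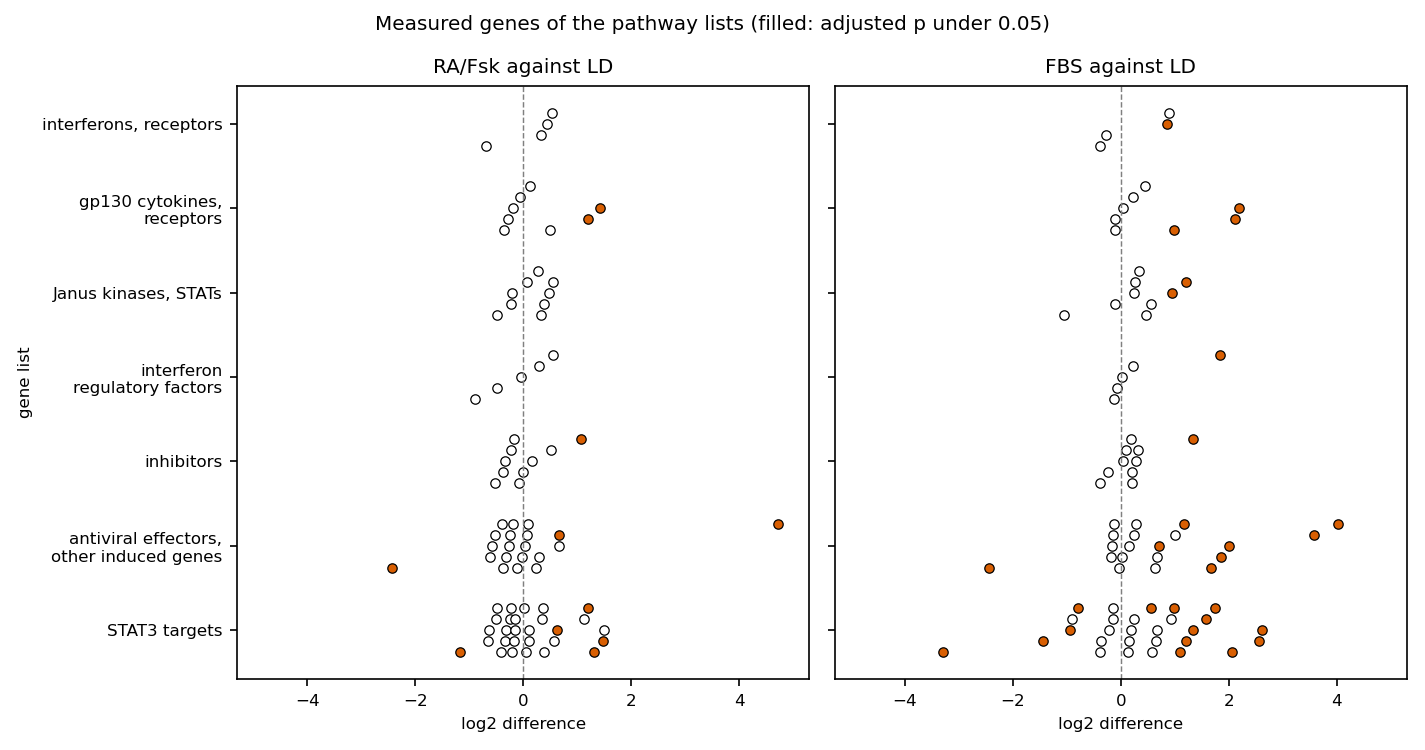
Each point is 1 measured gene of a pathway list, with its log2 difference on the x axis in RA/Fsk against LD (left) and FBS against LD (right), filled where the adjusted p was under 0.05. The antiviral effectors and STAT3 targets, the longest lists with 20 and 28 measured genes, hold most of the filled points in FBS. The filled point farthest to the right in RA/Fsk is Ccl2.

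Of the ligands and receptors of interferon, 1 of 4 measured genes rose in FBS against LD and 0 fell (13.6% and 12.4% of all genes). A single gene of so short a list is not read as a result about the list. The gene was Ifnar1, a chain of the type I interferon receptor, with group levels of 56.6 in RA/Fsk, 83.6 in FBS, 59.3 in HD and 43.9 in LD. It rose by 0.86 ± 0.23 log2 (adjusted p = 0.0108), and not without LD culture 1 (0.66, adjusted p = 0.0639). The interferons Ifnb1 and Ifng were dim everywhere. Ifnb1 had 9.76 in RA/Fsk, 14.5 in FBS, 11.3 in HD and 18.7 in LD, and Ifng had 23.3, 9.99, 13.7 and 14.6 in these groups. Yeast control probe sets, which match no rat gene, reached 2.4 to 19.6 on the arrays.

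Among gp130 cytokines and their receptors, 3 of 8 rose in FBS against LD and 0 fell (13.6% and 12.4% of all genes). Il6r, the receptor that binds interleukin 6, had 52.5 in RA/Fsk, 93.4 in FBS, 15.4 in HD and 16.5 in LD. It rose by 2.19 ± 0.33 in FBS against LD (adjusted p = 9.14e-05), and by 1.42 ± 0.33 in RA/Fsk against LD (adjusted p = 0.0128), though not without LD culture 3 (0.98, adjusted p = 0.0745). Il6st, the shared signal-transducing subunit, had 240.2 in RA/Fsk, 205.9 in FBS, 99.6 in HD and 101.6 in LD. It rose by 0.98 ± 0.27 in FBS and by 1.20 ± 0.27 in RA/Fsk against LD, and without LD culture 1 neither call held (0.82 with adjusted p = 0.0633 in FBS, and 1.03 with 0.0502 in RA/Fsk). Il6 itself rose by 2.11 ± 0.26 in FBS against LD but stayed dim, at 3.47 in RA/Fsk, 28.4 in FBS, 4.31 in HD and 2.75 in LD. Its dimmer probe set did not pass in FBS against LD (0.78 ± 0.35, adjusted p = 0.127) but did in FBS against HD (1.13 ± 0.35, 0.0295). The ligands Lif, Cntf and Ctf1 did not pass in any comparison.

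Of 9 Janus kinases and STATs, Stat3 A and Stat5a rose in FBS against LD and 0 fell (13.6% and 12.4% of all genes). Stat5a, which transmits growth hormone and cytokine signals, rose by 0.95 ± 0.28 (adjusted p = 0.0186), though not without LD culture 4 (0.69, adjusted p = 0.109) or FBS culture 4 (0.85, 0.0576). Its dimmer probe set had the opposite sign and did not pass (-0.75 ± 0.40, with 19.2 in FBS and 35.8 in LD, adjusted p = 0.199). Jak1, a kinase shared by interferon and gp130 receptors, fell by 0.78 on the log2 scale in RA/Fsk against FBS (SE 0.20, adjusted p = 0.011). Stat2, a partner of Irf9 in the type I response, had 179.5 in RA/Fsk, 207.3 in FBS, 165.8 in HD and 148 in LD, and did not pass in FBS against LD (0.47 ± 0.21, adjusted p = 0.126). Irf1 was the 1 interferon regulatory factor of 5 measured that rose in FBS (13.6% of all genes rose), and the differences of the other 4 ran from -0.13 to 0.23. Of 10 inhibitors, Socs2 rose by 1.33 ± 0.27 in FBS and by 1.06 ± 0.27 in RA/Fsk against LD. That is 1 gene of 10, near the 13.6% and 5.62% of all genes that rose. Pias3 rose in FBS against HD (0.49 ± 0.16, adjusted p = 0.0379), and Pias2 gave -0.53 ± 0.15 in RA/Fsk against HD (0.0304). A dimmer Ptpn11 probe set gave -1.38 in RA/Fsk against FBS (0.00721) and -1.51 in RA/Fsk against HD (0.0128). Another fell in RA/Fsk against HD as well (-1.30, 0.0453), whereas a still dimmer one had the opposite sign there and did not pass (1.13, 0.0935). A dimmer Ptpn1 probe set gave 0.57 in RA/Fsk against HD (0.0463). The brightest probe sets of Ptpn11 and Ptpn1 did not pass there. The RA/Fsk call of Socs2 ended without LD culture 3 (0.96, adjusted p = 0.0927), LD culture 4 (1.08, 0.0568) or RA/Fsk culture 4 (0.97, 0.0605).

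Among 20 measured antiviral effectors and other interferon-stimulated genes, 7 rose and 1 fell in FBS against LD (13.6% and 12.4% of all genes). In RA/Fsk against FBS 1 rose and 7 fell (8.95% and 10.4% of all genes). In RA/Fsk against LD 2 rose (Ccl2 and Lgals3bp) and 1 fell (Ifitm10), where 5.62% and 3.32% of all genes did. The changes of these 3 genes were thus called in both treated groups against LD. Beside Ifitm3, Gbp2, an interferon-induced GTPase, had 8.74 in RA/Fsk, 173.8 in FBS, 8.43 in HD and 9.93 in LD. It rose by 3.58 ± 0.44 in FBS against LD (adjusted p = 9.76e-06). Casp1, the protease of inflammasomes, had 90.4 in RA/Fsk, 353.2 in FBS, 57.0 in HD and 84.8 in LD, and rose 3.99-fold in FBS against LD (adjusted p = 1.68e-05). Lgals3bp, a secreted glycoprotein, rose by 1.85 ± 0.18. Vcam1, an adhesion molecule, rose by 1.68 ± 0.38. Ccl2, a chemokine for monocytes, rose by 1.17 ± 0.27 in FBS and by 4.71 ± 0.27 in RA/Fsk against LD, with levels of 2070 in RA/Fsk, 173.3 in FBS, 76.9 in HD and 74.1 in LD. The direction of Ccl2 in RA/Fsk against FBS (3.54 ± 0.25, adjusted p = 3.79e-08) was opposite to that of Ifitm3. Eif2ak2, the kinase PKR, rose by 0.71 ± 0.25 (adjusted p = 0.0474), a call that ended without LD culture 1 (adjusted p = 0.25), LD culture 4 (0.0728) or any 1 FBS culture (0.0808 to 0.0976).

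Ifitm10, a member of the same family by sequence, went the other way and fell by 2.45 on the log2 scale in FBS against LD (SE 0.67, adjusted p = 0.0116), though without LD culture 3 it did not pass (-1.91, adjusted p = 0.078). Its levels were 26.3 in RA/Fsk, 25.9 in FBS, 98.3 in HD and 163.7 in LD. Several textbook interferon targets did not pass in FBS against LD. Oas1a, which makes the activator of RNase L, gave 0.24 ± 0.26, and Rsad2 (viperin) gave 0.14 ± 0.38 on its brighter probe set. Cxcl10, a chemokine named for its induction by interferon gamma, gave 0.67 ± 0.49, and Irf7 gave -0.07 ± 0.51. Of the 20 genes, 12 did not pass in either direction in FBS against LD, Mx1 and Mx2 among them.

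Of 28 measured STAT3 targets, 10 rose and 4 fell in FBS against LD (13.6% and 12.4% of all genes). The transcription factors Junb (2.61 ± 0.32), Cebpb (2.56 ± 0.48), Cebpd (1.75 ± 0.30) and Fos (1.33 ± 0.31) rose, as did the copper carrier Cp (1.57 ± 0.30) and the protease inhibitor Timp1 (1.10 ± 0.11). Of the other 2 Cebpd probe sets, 1 rose by 3.59 ± 0.47 and 1 had the opposite sign and did not pass (-0.20 ± 0.23, adjusted p = 0.602). Crp fell by 3.29 on the log2 scale (SE 0.33), with levels of 607 in RA/Fsk, 135.3 in FBS, 219.1 in HD and 1365 in LD, and Myc fell by 0.93 (SE 0.25). Socs3, the feedback inhibitor that Stat3 induces, had 49.9 in RA/Fsk, 68.1 in FBS, 99.2 in HD and 59.5 in LD and did not pass in FBS against LD (0.18 ± 0.40, adjusted p = 0.8). Of these targets, 4 rose and 1 fell in RA/Fsk against LD (5.62% and 3.32% of all genes). Those that rose include Fos (1.47 ± 0.31), Junb (1.31 ± 0.32) and Timp1 (0.62 ± 0.11). The Junb call in RA/Fsk ended without LD culture 4 (1.02, adjusted p = 0.0851).

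Markers of the labelled cell types were read beside these genes. In FBS against LD, 6 of 9 astrocyte markers rose, where 13.6% of all genes did, led by S100b (2.54 ± 0.18 on its brighter probe set). The dimmer S100b probe set did not pass (0.58 ± 0.45, adjusted p = 0.399), and the dimmest Slc1a2 probe set fell (-1.26 ± 0.30, adjusted p = 0.0048). Gfap has no probe set in the annotation used. In RA/Fsk against LD, 0 of 7 neuron markers rose in limma, where 5.62% of all genes rose, and 0 had an unadjusted p under 0.05 upward, where 11% of all genes did. A count of 0 among 7 lies near those shares, so no rise of neuron markers was seen and nothing is read from it about the neuronal label. Gap43 fell by 0.88 on the log2 scale (SE 0.21, adjusted p = 0.0121), and 3 of 9 astrocyte markers rose. Of 7 oligodendrocyte lineage markers, the myelin genes Mbp (2.45 ± 0.49, adjusted p = 0.00442) and Cnp (0.78 ± 0.15, adjusted p = 0.00389) rose in RA/Fsk against LD and 0 fell (5.62% and 3.32% of all genes). Mbp rose in FBS against LD too (1.46 ± 0.49, adjusted p = 0.0373), whereas the precursor receptor Pdgfra fell, with 131 in FBS and 767 in LD. Of 7 neural progenitor markers, 5 fell in FBS against LD, where 12.4% of all genes fell, among them Fabp7 (137 in FBS, 489 in LD) and Ptprz1 (195 in FBS, 645 in LD). In RA/Fsk against LD 1 fell (Sox11), where 3.32% of all genes did.

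Of 11 microglia and macrophage markers, 0 rose in FBS against LD and 1 fell (Coro1a), where 13.6% and 12.4% of all genes did. Of these markers, 0 had an unadjusted p under 0.05 upward, where 17.8% of all genes did. Their summed level was 398.7 to 525.7 in FBS and 521.3 to 674.6 in LD cultures, and Coro1a alone had 4.596 in FBS and 141.2 in LD. Above the range of the yeast controls in both groups were C1qc (153.9 in FBS, 142.2 in LD), Ptprc (85.4 in FBS, 99.6 in LD), Cd14 (76.9 in FBS, 72.4 in LD) and Aif1 (43.3 in FBS, 44.4 in LD). Within that range in both groups were Itgam (6.47 in FBS, 3.44 in LD), Csf1r (5.63 in FBS, 7.82 in LD), Cd74 (7.67 in FBS, 10.5 in LD) and Lyz2 (7.10 in FBS, 15.3 in LD). The part of such cells in the differences of the 5 genes was not tested.

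Of 10 markers of fibroblasts, meninges and mural cells, Fn1 and Tagln rose in FBS against LD and 0 fell (13.6% and 12.4% of all genes), each gene read by its brightest probe set. Acta2, an actin of smooth muscle, did not pass on that probe set (0.40 ± 0.21, adjusted p = 0.189) but rose on its next brightest (1.75 ± 0.35, adjusted p = 0.00106). The summed level of the list was 318.3 to 489.7 in RA/Fsk and 2577 to 4508 in FBS cultures, against 330.2 to 464 in HD and 341.5 to 466.4 in LD cultures. Most of the FBS sum was Fn1, which had 2334 in FBS and 36.0 in LD, and the next largest part was Tagln, with 360.1 and 28.4. The collagen Col1a1 had 76.3 in FBS and 86.5 in LD. Dcn (10.1 in FBS, 8.74 in LD) and Lum (12.9 in FBS, 7.77 in LD) were dim in both groups. The part of such cells in the Ifitm3 and Irf1 differences was not tested. The log2 ratio of the 5′ to the 3′ GAPDH control probe sets, a sign of RNA integrity, averaged -0.29 in RA/Fsk, -0.06 in FBS, -0.06 in HD and -0.33 in LD. The ratio of FBS cultures (-0.161 to -0.007) did not overlap that of LD cultures (-0.470 to -0.212). A fit with this covariate therefore cannot separate the ratio from the treatment, and calls lost in it are not read as effects of RNA integrity. With that ratio as a covariate, Ifitm3 and Irf1 A still rose in FBS against LD, whereas Irf1 B (1.19, adjusted p = 0.105) and Stat3 A (0.60, adjusted p = 0.304) did not pass. Of the pathway genes named above, Ccl2, Fos, Socs2, Vcam1, Ifitm10 and Eif2ak2 no longer passed in FBS against LD (adjusted p of 0.0543 to 0.131).

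The genes whose levels followed each probe set most closely over the 14 cultures are given as a description, since cultures of the same group are not independent points. For Ifitm3 these were Angpt2 (r = 0.989), Bgn (0.983), Furin (0.977), Fn1 (0.977) and Anxa1 (0.977), and 2.18% of 7005 other probe sets had an r above 0.9. Anxa1, a calcium-dependent membrane protein, had 15.4 in RA/Fsk, 1130 in FBS, 11.7 in HD and 15.9 in LD. For Irf1 A the closest were Vgll3 (0.971), Fst (0.968), Igfbp3 (0.968), Pdlim1 (0.963) and Slit3 (0.96). All of these genes had their highest group level in FBS. For Mx1 the closest were Entpd1 (0.846) and Fblim1 (0.799), for Mx2 C1qc (0.854), followed by Lman1,, and for Stat3 A Homer3 (0.941) and Ykt6 (0.898).

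Among the 7 probe sets themselves, Ifitm3 correlated with Irf1 A at r = 0.879 and with Irf1 B at r = 0.853 over the 14 cultures. It correlated with Stat3 A at 0.723 and with Mx2 at 0.635, but with Mx1 at 0.201 and with Stat3 B at 0.132. Mx1 and Mx2, though close relatives, correlated at 0.039. FBS had the highest group level for Ifitm3, both Irf1 probe sets, Stat3 A and Mx2, whereas RA/Fsk had it for Mx1 and LD for Stat3 B.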

How the data were processed

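The authors deposited 1 table with a linear intensity for each probe set on 20 arrays. The deposited intensity values look scaled to a common trimmed mean, which is inferred from the values, while the software that produced them is not given in the sources used here. The values include 6 zeros.

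Values were transformed to log2(intensity + 4.99), 10% of the median positive value of 49.9, and arrays of a group with the same number were averaged to 14 cultures. After 59 control probe sets were left out, 8740 were fitted across all genes with limma 3.58.1 (R 4.3.3) by lmFit and eBayes, using an intensity trend, with all 4 groups in 1 model, 10 residual degrees of freedom and Benjamini-Hochberg adjustment. The fit was tested on simulated data. Probe sets were named from the platform annotation, by which 7006 carry 1 symbol, 308 several and 1426 none, for 4736 genes. Bacillus control probe sets were bright, so yeast control probe sets, chosen after seeing the data, serve as the low mark.

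Numbers were taken to pair cultures where deviations from the group means correlated above 0.1 in every one of at least 3 pairs. This held for RA/Fsk and LD (r = 0.108 to 0.327) and for no other pair of groups with 3 or more shared numbers.

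The members and gene lists were chosen with earlier results of these data known. The genes named from each list are some of the called genes with the smallest adjusted p and of the called receptors, kinases, STATs and inhibitors. Not every called gene is named, and other genes named were chosen after their values were seen. Alternatives were pseudocounts of 1 and 32, quantile normalization, median centring, filters on dim probe sets, no intensity trend, each array as its own sample, FBS array 3 or 3r alone, only the compared groups, the GAPDH ratio as a covariate, the replicate block and each culture left out. LD array 1b alone was added after seeing the data.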

Additional observations from a re-analysis of the deposited data

Results flagged for a closer look

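The Mx2 level of RA/Fsk culture 1 stood apart from the other 3 RA/Fsk cultures. It was 40.4, against 15.7, 14.9 and 17.1, and the gap to the nearest of the others made up 0.873 of the range of the 4 cultures on the log2 scale. This was 1 of 14 such checks of a probe set in a group of 4 cultures, and chance flags about 1 in 20.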

How the results depend on the processing

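Ifitm3 and Irf1 A kept their direction and their call under every alternative run in FBS against LD (3.35 to 4.20 and 1.66 to 2.05 log2), in FBS against HD and in RA/Fsk against FBS. Irf1 B kept its calls in FBS against HD and in RA/Fsk against FBS, and lost the call in FBS against LD only with the GAPDH ratio as a covariate. The number of the 7 probe sets that passed in FBS against LD was 4. It was 2 with that covariate, and 3 with array 3r alone, with the dimmer 50% left out and without LD culture 3, so that without 1 culture at a time it ran from 3 to 4. In RA/Fsk against LD it was 1, and 0 with quantile normalization, with median centring, without the dimmer 50% of probe sets, Stat3 B among them, with only the compared groups and with the replicate block. Without 1 culture at a time it ran from 0 to 1 there, with 0 without LD culture 1 or 4 or RA/Fsk culture 1 or 4. For RA/Fsk against HD it was 0, and 1 with the dimmer 25% left out (Mx1, adjusted p = 0.0412) and with the GAPDH covariate (Ifitm3, adjusted p = 0.0494). Pathway genes that passed numbered 1 in HD against LD, 3 with each array as its own sample and 2 with the GAPDH covariate. They numbered 10 in RA/Fsk against LD, 4 with only the compared groups, and 5 to 10 without 1 culture at a time, the fewest without LD culture 3. Beside the replicate block value given for Stat3 B in RA/Fsk against LD, the block ended no other call of a probe set of these 5 genes. Mx2 in RA/Fsk against FBS also missed the threshold with each array as its own sample (adjusted p = 0.163), array 3r alone (0.172), only the compared groups (0.087) and the GAPDH covariate (0.337). The cause of these changes was not tested.

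Differences that turned sign were all uncalled. Mx1 in FBS against LD (0.01) was -0.0395 with quantile normalization, -0.0759 with median centring, -0.0832 with each array as its own sample, -0.005 with array 3r alone and -0.15 with LD array 1b alone. Stat3 B in FBS against HD (0.12) was -0.0156 with quantile normalization and -0.0698 with median centring. Mx2 in HD against LD (0.04) was -0.53 with the GAPDH covariate and -0.0339 with the replicate block, where Irf1 A (-0.11) was 3e-04. With the GAPDH covariate, RA/Fsk against HD was 0.29 for Stat3 A and 0.13 for Irf1 B. Without 1 culture at a time, HD against LD ran over -0.44 to 0.0399 for Ifitm3, -0.21 to 0.0141 for Irf1 A, -0.47 to 0.0069 for Irf1 B and -0.0489 to 0.11 for Mx2. FBS against HD ran over -0.0847 to 0.31 for Stat3 B, and FBS against LD over -0.25 to 0.25 for Mx1. RA/Fsk against HD ran over -0.37 to 0.0714 for Irf1 B, and RA/Fsk against LD over -0.13 to 0.64 for Stat3 A and -0.0266 to 0.47 for Mx1. With 3 or 4 cultures a group and probe sets as dim as Mx1, Mx2 and Stat3, smaller differences may go unseen.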
